A study of Mus musculus with 6 samples.

Results

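RNA levels of 10 oxygen-sensing genes, chosen by name among the 49585 genes of the deposited table, were followed in mouse heart. They are the 3 alpha subunits of the hypoxia-inducible factors (Hif1a, Epas1 and Hif3a), their shared partner Arnt, the prolyl hydroxylases Egln1 and Egln3, the ubiquitin ligase subunit Vhl, and the oxygen-responsive genes Adm, Vegfa and Ankrd37. The tested animals were male mice held at lunar gravity (0.167 g, labelled partial gravity) on the International Space Station. Per the labels, a centrifuge of 15 cm radius turned at 31 rpm produced that gravity. They were set against male ground control mice (1 g), of strain C57BL/6 J, housed under matched conditions, with 6 mice per mission. Age is given as 8 or 9 weeks in both groups, and no allele or drug is named for either. A strain is named for the ground controls alone, and the mission of a library is not stated. Each group has 3 heart libraries, called LG1 to LG3 (lunar gravity) and GC1 to GC3 (ground control). Whether the libraries come from separate mice is not stated, so the p-values below reflect variation among libraries, which may be technical. With no mice flown at 1 g in these data, gravity, spaceflight and housing cannot be told apart.

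Cells sense oxygen through enzymes that hydroxylate prolines in HIF alpha subunits. Where oxygen is plentiful, the prolyl hydroxylases Egln1 (PHD2) and Egln3 (PHD3) mark the alpha subunits, and the VHL protein, part of a ubiquitin ligase, binds the marked subunits for destruction by the proteasome. Where oxygen is short, the alpha subunits persist, pair with ARNT and bind short hypoxia response elements whose core reads ACGTG or GCGTG. Their targets include genes of glycolysis, vessel growth and mitochondrial removal, and Egln3 itself. Much of this control acts on protein stability, which RNA levels do not measure.

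The 4 stretches upstream of transcription starts belong to genes picked by their values in these data. Hif1a alone among the 10 genes passed the test, and the target Bnip3 rose. Egln3 and Ankrd37 had the lowest log2 fold changes of the 10 but were not called, and Ankrd37 had few reads. Each stretch is the 250 bases before a RefSeq start (GRCm38.p6), written 5′ to 3′ on the gene's own strand. Capitals mark each ACGTG or GCGTG, on either strand (the reverse strand reads CACGT or CACGC), and matches that overlap were counted separately.
Hif1a, chr12:73907617-73907866, plus strand: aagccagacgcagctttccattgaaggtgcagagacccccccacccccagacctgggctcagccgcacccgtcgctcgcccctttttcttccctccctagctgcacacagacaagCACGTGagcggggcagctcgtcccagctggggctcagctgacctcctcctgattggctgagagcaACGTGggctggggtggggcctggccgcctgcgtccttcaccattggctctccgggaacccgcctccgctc
Egln3, chr12:54203875-54204124, minus strand: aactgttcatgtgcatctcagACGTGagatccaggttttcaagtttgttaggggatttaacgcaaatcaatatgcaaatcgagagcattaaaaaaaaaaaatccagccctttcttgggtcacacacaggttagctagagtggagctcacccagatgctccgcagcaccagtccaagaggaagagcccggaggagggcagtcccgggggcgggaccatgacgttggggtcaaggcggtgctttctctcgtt
Ankrd37, chr8:45999851-46000100, minus strand: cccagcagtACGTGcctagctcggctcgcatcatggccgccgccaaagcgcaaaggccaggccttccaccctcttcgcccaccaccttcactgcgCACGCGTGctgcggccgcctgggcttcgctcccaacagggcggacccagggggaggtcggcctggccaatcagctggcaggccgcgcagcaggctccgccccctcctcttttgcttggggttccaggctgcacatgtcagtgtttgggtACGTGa
Bnip3, chr7:138909507-138909756, minus strand: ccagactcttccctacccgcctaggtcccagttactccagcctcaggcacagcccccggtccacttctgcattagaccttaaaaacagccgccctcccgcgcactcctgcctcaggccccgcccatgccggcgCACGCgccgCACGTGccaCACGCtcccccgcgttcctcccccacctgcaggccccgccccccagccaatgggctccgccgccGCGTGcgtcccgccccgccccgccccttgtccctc

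Hif1a had 3 matches, starting at -135, -134 and -70, where -1 is the base next to the start. Egln3 had 1 match at -229, and Ankrd37 had 4, at -241, -155, -152 and -6. Bnip3 had 5, at -117, -108, -107, -99 and -35. RefSeq windows were found for 9 of the 10 genes, 10 windows in all, and 8 windows of 8 genes held the core. Of all 32851 windows in the RefSeq table, 38.6% held it. A match of 5 letters describes the sequence and does not show a bound site. The RefSeq starts of Hif1a and Ankrd37 lie inside the gene as GENCODE annotates it. Those of Arnt, Egln1 and Vhl also lie inside it, close to its annotated start. Vegfa had 2 windows. The one before the gene (chr17:46032378-46032627) had 0 matches, and the one inside it (chr17:46025164-46025413) had 2.

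Total counts ranged from 6461213 to 8271553 per library. In the test over all genes, 462 of 12258 genes were called changed, at an adjusted p under 0.05 in edgeR's quasi-likelihood test (219 without GC2 and 232 without LG2). Cardiomyocyte markers were abundant, with summed levels of 47976 to 53431 CPM in lunar gravity and 60373 to 61311 CPM in ground control. CPM is a gene's count relative to its library's total, after scaling for library composition (TMM). Of the 9 cardiomyocyte markers, 1 rose (Pln, log2 0.30) and 3 fell (Myh6 -0.35, Ryr2 -0.35 and Actc1 -0.78). The rest were not called, at -0.17 for Tnnc1, 0.09 for Tnnt2, 0.03 for Myl2 and -0.02 for both Myl3 and Tnni3. Myh6 made up a large part of the sums, with means of 24907 CPM in lunar gravity and 31826 CPM in ground control. The lower sum was thus not shared by all of these markers. Summed smooth muscle and pericyte markers were 1857 to 1994 CPM in lunar gravity and 1759 to 1819 CPM in ground control. Of these 8 markers 2 were higher (Rgs5 and Tagln) and 1 lower (Acta2). Rgs5 made up a large part of the sums, with means of 936 CPM in lunar gravity and 780 CPM in ground control. Abcc9, the next most abundant, had 594 CPM in lunar gravity and 629 CPM in ground control and was not called. The higher sum was thus not shared by all of these markers either. Of 8 fibroblast markers 3 fell, and of 5 atrial markers 1 rose (Sln, log2 0.39). The other atrial markers were not called, at -0.45 for Bmp10, -0.33 for Myl7, -0.27 for Myl4 and 0.04 for Nppa. Bmp10, Myl7 and Myl4 were lower in every lunar gravity library than in every ground control. Summed fibroblast markers overlapped between groups, at 2315 to 2513 CPM in lunar gravity and 2350 to 2382 CPM in ground control. Summed atrial markers overlapped too, at 1380 to 1589 CPM in lunar gravity and 1526 to 1688 CPM in ground control. None of 9 endothelial, 8 macrophage or 7 red cell markers was called. The skeletal muscle genes Myh1, Myh2 and Myh4 and the brown fat gene Ucp1 were at 0 in all 6 libraries. Other markers of these tissues were detected. Raw counts of Tnni2 (muscle) were 2, 12 and 7 in LG1 to LG3 and 4, 5 and 3 in GC1 to GC3. The fat genes Adipoq and Plin1 had 8, 9 and 8 and 8, 8 and 10 in LG1 to LG3. In GC1 to GC3 they had 5, 3 and 3 and 5, 5 and 3, too few to test. Cidea averaged 15.5 CPM in lunar gravity and 15.8 CPM in ground control and was not called. In bulk RNA, fewer cells of a type and less RNA per cell cannot be told apart, and the part of these markers in the results below was not tested.

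Of the 10 genes, 1 rose in lunar gravity and 0 fell. Across all tested genes, 3.77% were called (1.56% higher and 2.21% lower). Scaled by library totals alone, 288 genes were higher and 193 lower, against 191 and 271 as reported, so that split depended on scaling. A count of 1 in 10 is too small to set against a share. Without GC3, 3 of the 10 were called, and without LG1, LG2, GC1 or GC2, 0 were. The gene that rose was Hif1a, which encodes the broadly expressed oxygen-regulated alpha subunit. The 10 genes had 5 positive and 5 negative log2 fold changes, with a median of -0.01 against 0.00067 for all tested genes. The lunar gravity libraries lay wholly above the ground controls for Hif1a and Arnt, and wholly below for Egln1 and Ankrd37. That is 4 of 10 genes whose groups did not overlap, where 20.6% of all tested genes did not.

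**Figure D1:**
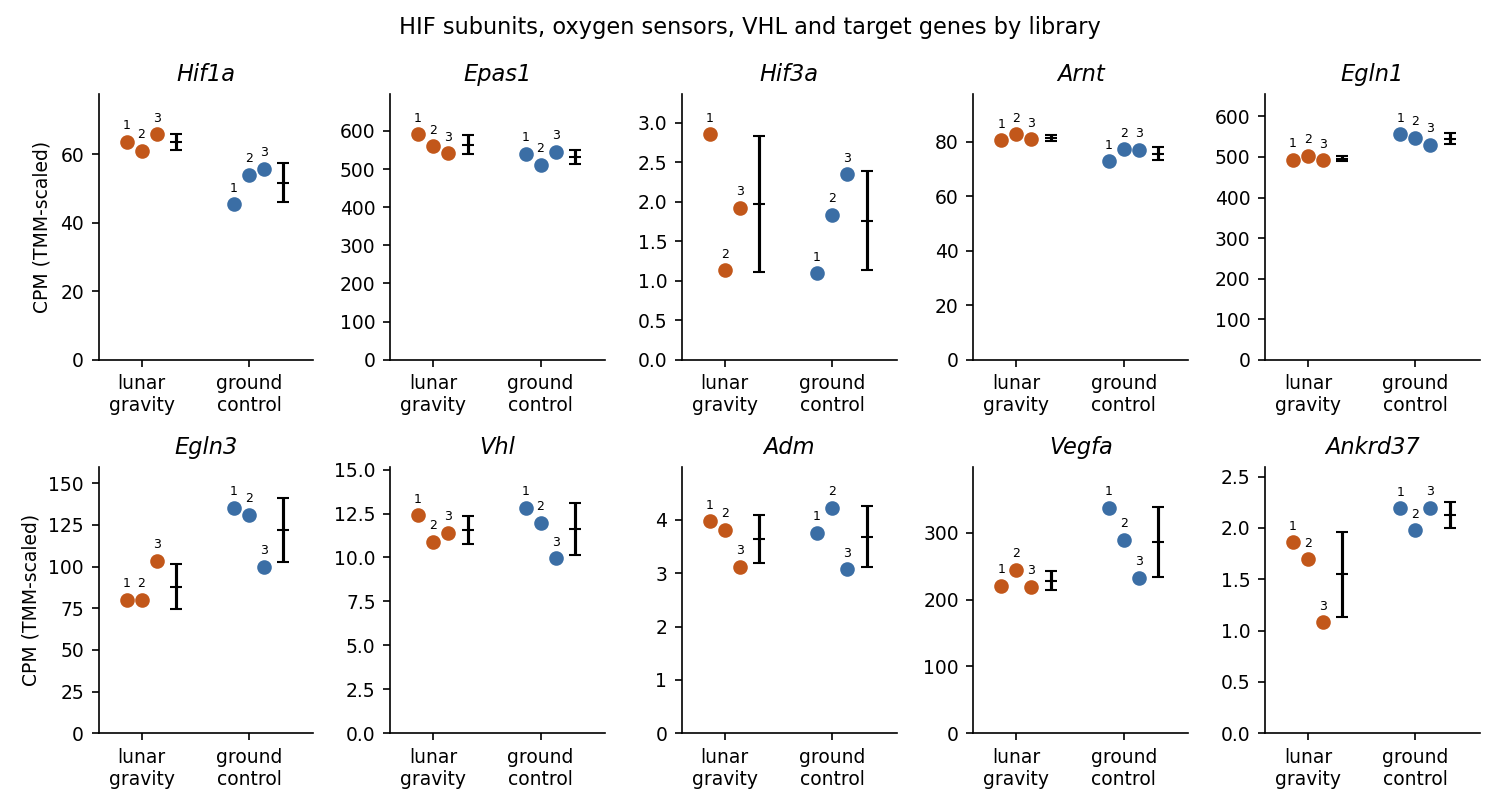
Level of each of the 10 genes in each library, in CPM scaled by TMM, with lunar gravity (orange) left of ground control (blue) and library numbers above the points; bars give mean ± SD (n = 3). All Hif1a points of lunar gravity lie above those of ground control, whereas the groups overlap for Egln3 and Vegfa through LG3 and GC3 or through GC3 alone.

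Hif1a (ENSMUSG00000021109, chromosome 12 from 73901375 to 73947530, plus strand, GRCm38) had 63.6, 61.1 and 65.9 CPM in LG1 to LG3, against 45.4, 54.0 and 55.8 CPM in GC1 to GC3. All lunar gravity libraries were higher than all ground controls, and GC1 was the lowest. The means were 63.5 ± 2.41 CPM in lunar gravity and 51.7 ± 5.56 CPM in ground control (SD, n = 3 each), a 1.23-fold rise (log2 0.30, SE 0.08, adjusted p = 0.0396). Reads that span exon junctions of Hif1a numbered 246, 207 and 268 in LG1 to LG3, and 118, 191 and 161 in GC1 to GC3, before any scaling for depth. These raw numbers were also higher in every lunar gravity library.

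The Hif1a call sat close to the threshold. It was lost when any library but GC3 was left out, with an adjusted p of 0.0761 without LG1, 0.0828 without LG2, 0.110 without LG3, 0.231 without GC1 and 0.104 without GC2. DESeq2 gave 0.0766, a fit without robust variance estimation gave 0.0558, and grouping GC3 with lunar gravity, as the deposited header does against its title, gave 0.2725. In all, 10 of 19 alternatives lost the call. Only 55.0% of its exon reads were placed uniquely; over all exon reads, multi-mapped ones included, the log2 fold change was 0.23 and the adjusted p 0.127. Its exons share 330 bases with the antisense gene Gm15283 and 148 bases with Gm49321 on the same strand. Whether counting used strand is not stated, so reads of these genes may be joined. The log2 fold change stayed positive in all 19 alternative settings, between 0.21 and 0.35.

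By the rule of nearest pattern, Cd9 and Ppwd1 were among the 3 genes that followed Hif1a most closely over the 6 libraries. The likeness is the root mean square difference in log2 CPM after centring each gene on its mean. It was 0.042 for Cd9, a tetraspanin of the cell surface, and 0.044 for Ppwd1, a peptidyl-prolyl isomerase. Cd9 averaged 36.1 ± 2.67 CPM in lunar gravity and 29.4 ± 3.27 CPM in ground control (SD, n = 3 each). Neither was called in edgeR, with adjusted p of 0.105 for Cd9 and 0.504 for Ppwd1.

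Epas1 encodes HIF2 alpha, the alpha subunit prominent in endothelium. It had 592, 560 and 541 CPM in LG1 to LG3, against 540, 511 and 545 CPM in GC1 to GC3. The groups overlapped through LG3 and GC3, and the log2 fold change was 0.09 (SE 0.05, adjusted p = 0.485 in edgeR). Scaled by library totals alone it was 0.13 (adjusted p = 0.200). The deposited RPKM did not overlap, at 52.6 ± 2.63 in lunar gravity and 45.6 ± 1.062 in ground control (SD, n = 3 each). They lack the composition scaling and rest on a larger library total than the summed counts used here. What part each of these had in the gap was not tested. Summed endothelial markers also overlapped, at 1010 to 1225 CPM in lunar gravity and 1107 to 1118 CPM in ground control.

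Hif3a, whose product in several splice forms opposes the other alpha subunits, was close to the limit of detection. Its raw counts were 23, 8 and 16 in LG1 to LG3 and 7, 13 and 16 in GC1 to GC3. The libraries of each group spread over the same range, and the log2 fold change of 0.17 had an SE of 0.38 (adjusted p = 0.886). With so few reads the estimate is imprecise.

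Arnt, the constitutive partner of all 3 alpha subunits, had 80.6, 82.8 and 80.9 CPM in LG1 to LG3, against 72.8, 77.3 and 77.0 CPM in GC1 to GC3. The groups did not overlap, but the difference was small (log2 0.10, SE 0.07) and did not pass the test (adjusted p = 0.494). A p that misses the threshold does not show that the groups were equal, here or below.

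Among the sensors, no gene was called. Egln1, the main prolyl hydroxylase that sets HIF alpha turnover at normal oxygen, had 493, 503 and 492 CPM in LG1 to LG3, against 556, 547 and 531 CPM in GC1 to GC3. Every lunar gravity library was below every ground control, with little spread within either group. The log2 fold change was -0.13 (SE 0.05, unadjusted p = 0.0134, adjusted p = 0.163 in edgeR). Scaled by library totals alone it was -0.09, and in the deposited RPKM the groups averaged 68.6 ± 0.90 in lunar gravity and 69.3 ± 2.84 in ground control (SD, n = 3 each).

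Egln3, a hydroxylase that HIF itself induces in many cells, had the lowest log2 fold change of the 10 genes. It had 80.1, 80.0 and 103 CPM in LG1 to LG3, against 135, 131 and 100 CPM in GC1 to GC3. LG1 and LG2 were low and GC1 and GC2 high, while LG3 and GC3 met in the middle, so the groups overlapped. The means were 87.9 ± 13.5 CPM in lunar gravity and 122.2 ± 19.3 CPM in ground control (SD, n = 3 each), with a log2 change of -0.47 (SE 0.16, unadjusted p = 0.0237). The adjusted p of 0.226 did not pass.

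The call of Egln3 turned on those 2 libraries and on how its variance was estimated. Without LG3 the log2 fold change was -0.61 and the adjusted p 0.0341, and without GC3 it was -0.60 with an adjusted p of 0.00322. Fitting without robust variance estimation gave an adjusted p of 0.0181, with no filter on low counts it was 5.06e-05, and with GC3 regrouped 0.0350. DESeq2 gave 0.117. The log2 fold change was negative in all 19 alternatives, from -0.61 to -0.39.

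Vhl, whose product binds hydroxylated HIF alpha, had nearly equal means. It had 12.4, 10.9 and 11.4 CPM in LG1 to LG3, against 12.8, 12.0 and 9.96 CPM in GC1 to GC3. The groups overlapped throughout, with a log2 fold change of 0.00019 and an SE of 0.14 (adjusted p = 0.9996).

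**Figure D2:**
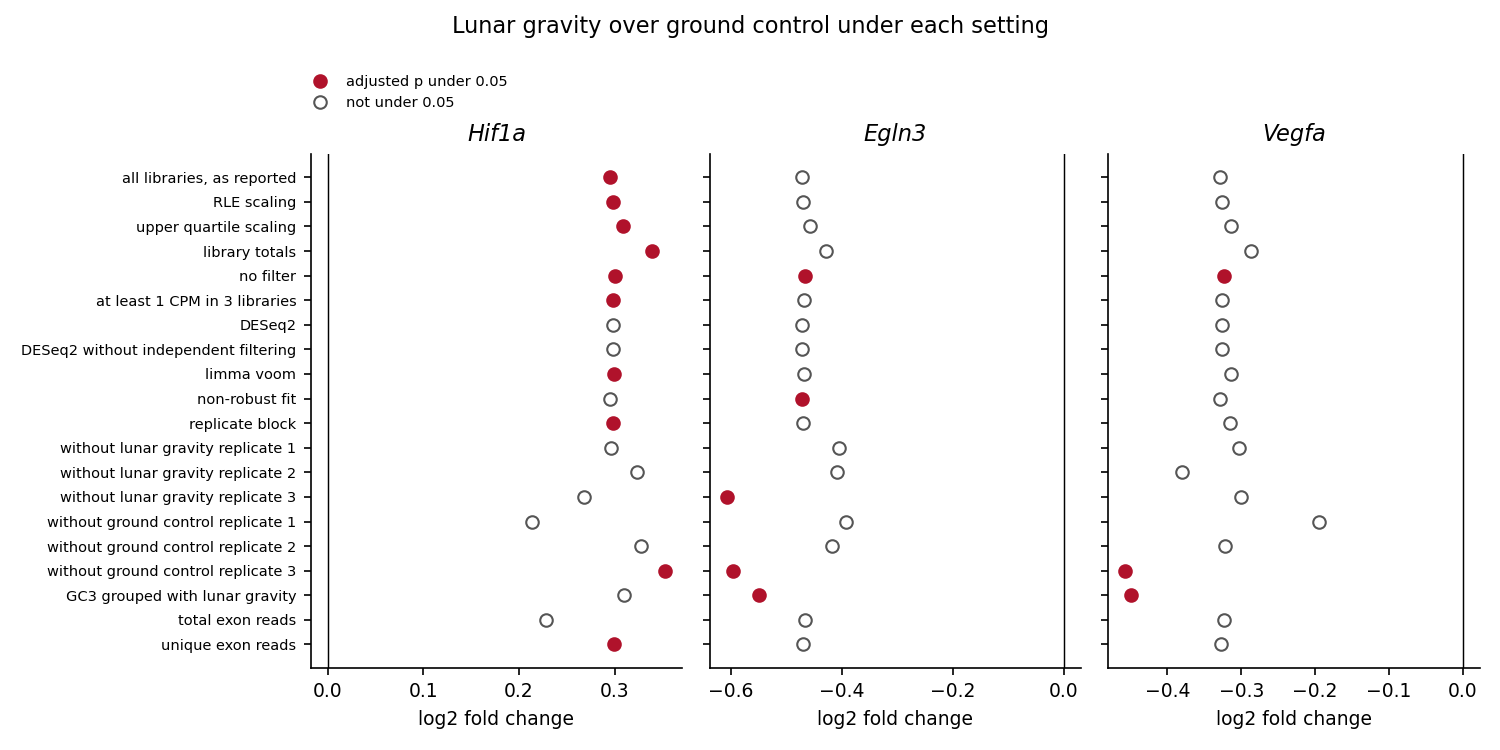
Log2 fold change (lunar gravity over ground control) of Hif1a, Egln3 and Vegfa under each setting; filled points have an adjusted p under 0.05, and the vertical line is 0. The direction of each gene held in every setting, between 0.21 and 0.35 for Hif1a, -0.61 and -0.39 for Egln3, and -0.46 and -0.19 for Vegfa, while the calls came and went. GC3 grouped with lunar gravity is the grouping in the deposited header, against the title of that library.

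Of the 3 oxygen-responsive genes, none was called. Vegfa, which encodes the vascular endothelial growth factor A and is made by cardiomyocytes among other cells, had 220, 245 and 219 CPM in LG1 to LG3, against 338, 289 and 233 CPM in GC1 to GC3. GC1 stood highest, and GC3 lay between LG1 and LG2, so the groups overlapped. The ground controls spread more widely (287 ± 52.4 CPM) than lunar gravity (228 ± 14.3 CPM; SD, n = 3 each). The log2 fold change was -0.33 (SE 0.14, unadjusted p = 0.0562, adjusted p = 0.338 in edgeR).

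The call of Vegfa also depended on GC3 and on the fit. Without GC3 the log2 fold change was -0.46 and the adjusted p 5.62e-04, whereas without GC1 it was -0.19 with an adjusted p of 0.287. With no filter on low counts the adjusted p was 0.00433, and with GC3 regrouped 0.00845. A fit without robust variance estimation gave 0.0667.

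Adm, the gene of the vasodilator peptide adrenomedullin, gave raw counts of 32, 27 and 26 in LG1 to LG3 and 24, 30 and 21 in GC1 to GC3. The groups overlapped, with a log2 change of -0.03 (SE 0.25, adjusted p = 0.979), and the sign changed with scaling to library totals (0.02) and with all exon reads counted (0.0066). Only 38.1% of its exon reads were unique.

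Ankrd37, an ankyrin repeat gene induced by hypoxia, gave raw counts of 15, 12 and 9 in LG1 to LG3 and 14, 14 and 15 in GC1 to GC3. Scaled for depth, these were 1.86, 1.70 and 1.08 CPM in LG1 to LG3 and 2.19, 1.97 and 2.20 CPM in GC1 to GC3. Each lunar gravity value was below each ground control, but at so few reads the log2 fold change of -0.46 had an SE of 0.34 (adjusted p = 0.585). Its exons share 57 bases with Ufsp2 and 349 bases with Lrp2bp, both on the opposite strand, so its reads are uncertain.

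Levels of different genes can be set side by side only per exon length, for which the deposited RPKM were used. RPKM are reads relative to exon length and to a library total of the authors' own, larger than the summed counts. Egln1 was the most abundant of the 10, at a mean of 68.9 RPKM over the 6 libraries, followed by Epas1 at 49.1, Vegfa at 28.4 and Egln3 at 18.6 RPKM. Hif1a followed at 8.36, Arnt at 4.67, Adm at 2.78 and Vhl at 1.84 RPKM. Ankrd37 at 0.598 and Hif3a at 0.132 RPKM came last. The RPKM ranges over 6 libraries did not overlap between any neighbours in this order, but it depended in part on multi-mapped reads. In unique exon reads over the 6 libraries, Adm had 158 on 1619 exon bases and Vhl 507 on 2997. Per base, Adm was thus below Vhl. Hif1a had 2510 unique reads on 5896 exon bases and Arnt 3449 on 8007, nearly level per base.

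Among the alpha subunits, Epas1 thus exceeded Hif1a in RPKM, by 5.66 ± 0.59 times in lunar gravity and 6.25 ± 0.80 times in ground control (SD, n = 3 each). Of the hydroxylases, Egln1 exceeded Egln3 by 4.26 ± 0.63 times in lunar gravity and 3.37 ± 0.50 times in ground control (SD, n = 3 each). The 2 groups overlapped in each of these ratios. RPKM counts all exon reads, so the multi-mapped reads of Hif1a and Adm are in these levels. All 24034 exon reads of Epas1 were unique, against 2510 of 4566 for Hif1a. On unique reads the ratio of Epas1 to Hif1a is therefore larger than printed here, and the SD does not cover that.

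**Figure D3:**
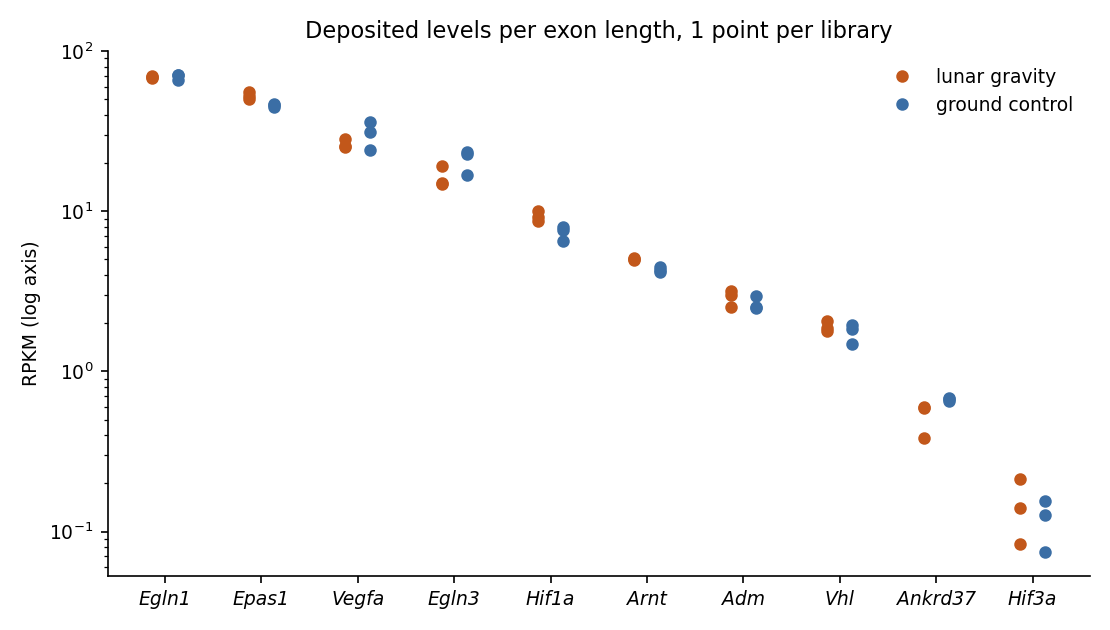
Deposited RPKM of the 10 genes on a log axis, ordered by mean, with 1 point per library (lunar gravity orange, ground control blue). Egln1 is highest at a mean of 68.9 RPKM and Hif3a lowest at 0.132 RPKM, and no neighbouring genes overlap in their RPKM ranges. RPKM count multi-mapped reads, on which the places of Hif1a and Adm depend.

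Ribosomal RNA depletion keeps unspliced RNA, so reads in introns give a second readout of the same genes. Of 11968 genes tested on unique intron reads, 2.86% were called, and of the 9 oxygen-sensing genes tested 0 were called (Adm had no unique intron read). By edgeR none of these 9 had an unadjusted p under 0.05, and the smallest was 0.0854, for Vegfa. Hif1a had 75.6, 73.5 and 71.2 intron CPM in LG1 to LG3, against 61.8, 70.5 and 64.8 intron CPM in GC1 to GC3. As with the exon counts, lunar gravity lay above ground control in every library, with a log2 change of 0.16 (SE 0.09, adjusted p = 0.462). Intron values depended on scaling: by library totals alone the median over all tested genes was 0.11, against 0.0071 as reported, and Hif1a had 0.27 (adjusted p = 0.185). Relative to that median Hif1a had 0.15 under either scaling. Genes called on introns were 43 higher and 299 lower as reported, and 115 higher and 155 lower by library totals.

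By library totals, intron values were 0.23 for Epas1, 0.24 for Arnt, 0.27 for Egln1 and -0.23 for Vegfa, none of them called. Relative to the median they were 0.12, 0.12, 0.16 and -0.35. With the composition scaling, Epas1 and Arnt introns also lay above ground control in every lunar gravity library. Their log2 fold changes were 0.12 (adjusted p = 0.496 in edgeR) and 0.13 (adjusted p = 0.527). The share of all genes tested on introns whose groups did not overlap was not determined. The separations of Hif1a, Epas1 and Arnt introns were therefore not set against it. Vegfa introns had 92.2, 109 and 96.9 CPM in LG1 to LG3, against 162, 122.5 and 94.0 CPM in GC1 to GC3. GC3 was again the low ground control, and the log2 fold change was -0.34 (SE 0.18, adjusted p = 0.443; 0.0271 without GC3).

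Egln1 and Ankrd37 differed in sign between exon and intron values. Egln1 introns had 143, 143 and 119 CPM in LG1 to LG3, against 134, 111 and 116 CPM in GC1 to GC3, a log2 change of 0.16 (SE 0.10, adjusted p = 0.496). The groups overlapped through LG3 and GC1. Per 100 exon reads Egln1 had 17.6 intron reads in lunar gravity and 15.8 in ground control. Ankrd37 introns, at 21, 10 and 14 reads in LG1 to LG3 and 15, 8 and 11 reads in GC1 to GC3, gave 0.33 (SE 0.36, adjusted p = 0.743). The difference between the read types was not tested for either gene. Egln3 introns gave 87, 53 and 62 reads in LG1 to LG3 and 125, 40 and 41 reads in GC1 to GC3, with GC1 far above the rest.

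**Figure D4:**
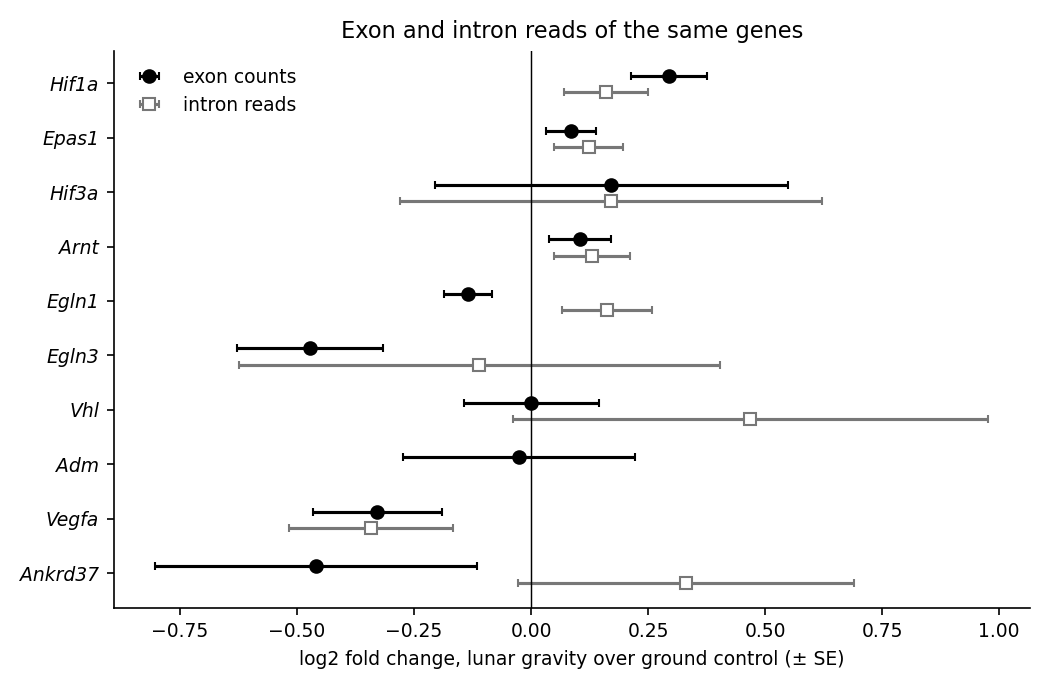
Log2 fold change (lunar gravity over ground control, ± SE) of each gene in exon counts (filled circles) and unique intron reads (open squares); Adm has no unique intron read. Hif1a is positive in both, at 0.30 and 0.16, Vegfa is negative in both, at -0.33 and -0.34, and Egln1 and Ankrd37 differ in sign, at -0.13 and 0.16 and at -0.46 and 0.33.

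The wider machinery of HIF control was described with a list of 21 regulators, covering other hydroxylases, VHL partners, coactivators and inhibitors. Of 20 tested, 0 were called by edgeR and 1 had an unadjusted p under 0.05, where 15.6% of all tested genes had one. DESeq2 called 0 as well. The median log2 fold change was 0.0052, with 10 positive and 10 negative, and the groups did not overlap in 3 genes, where 20.6% of all tested genes did not. The smallest p was that of Cited4, which encodes a transcriptional coregulator binding CBP and p300, at a log2 change of -0.30 (SE 0.13, adjusted p = 0.278). Cited4 had 21.3, 21.1 and 21.2 CPM in LG1 to LG3, against 30.7, 28.2 and 19.5 CPM in GC1 to GC3. GC3 was again apart from the other ground controls, below all lunar gravity libraries, and without it the adjusted p was 0.0215.

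Egln2, the third prolyl hydroxylase, had a log2 change of 0.16 (SE 0.09, adjusted p = 0.418), and its groups did not overlap. Hif1an, the asparaginyl hydroxylase that blocks coactivator binding, had -0.06 (SE 0.06, adjusted p = 0.712). Arnt2, a relative of Arnt known from neurons, had too few reads to test, with 7, 2 and 6 in LG1 to LG3 and 5, 3 and 3 in GC1 to GC3.

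Known HIF targets moved in both directions. Of 46 tested among 50 listed, 2 rose and 2 fell, where 1.56% of all tested genes rose and 2.21% fell. In edgeR 17 of the 46 had an unadjusted p under 0.05, where 15.6% of all tested genes had one. Without LG3, 7 were called, and without GC3, 7. The median log2 fold change was -0.09 against 0.00067 for all tested genes, and 29 of 46 were negative against 6105 of 12258. The groups did not overlap in 17 targets, 5 with lunar gravity above and 12 with it below, where 20.6% of all tested genes did not overlap. The list was chosen with results of these data known, so these counts describe it and test nothing.

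The targets that rose were Bnip3 and Mxi1, neither of which encodes a glycolytic enzyme. Bnip3, a receptor for removal of mitochondria by autophagy, had 127, 116 and 120 CPM in LG1 to LG3, against 95.2, 94.8 and 95.9 CPM in GC1 to GC3. Its groups were well apart, with a log2 change of 0.35 (SE 0.06, adjusted p = 0.00148). Only 30.1% of its exon reads were unique; on unique reads alone the log2 fold change was 0.33 (adjusted p = 0.0111). Mxi1, an antagonist of MYC, had 59.1, 56.0 and 53.9 CPM in LG1 to LG3, against 44.5, 42.6 and 39.3 CPM in GC1 to GC3. It too had no overlap, with a log2 change of 0.42 (SE 0.08, adjusted p = 0.00272).

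The targets that fell were Higd1a and Eno1. Higd1a, a small mitochondrial protein associated with the respiratory chain, had 42.6, 43.1 and 49.9 CPM in LG1 to LG3, against 60.4, 58.2 and 59.9 CPM in GC1 to GC3 (log2 -0.39, SE 0.08, adjusted p = 0.00465). Eno1, the glycolytic enzyme enolase, had 63.6, 69.3 and 67.0 CPM in LG1 to LG3, against 81.1, 85.3 and 79.4 CPM in GC1 to GC3 (log2 -0.30, SE 0.07, adjusted p = 0.0124). All lunar gravity libraries were below all ground controls in both genes. The Eno1 call was lost without LG1 (adjusted p = 0.0555) and without GC2 (0.115), and 33.5% of its exon reads were unique. Higd1a, Bnip3 and Mxi1 kept their calls with each library left out in turn. All 4 lost them with GC3 grouped with lunar gravity, at adjusted p of 0.340 to 0.578.

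Other glycolytic and metabolic targets were not called. Pgk1, phosphoglycerate kinase, had a log2 change of -0.20 (SE 0.07, adjusted p = 0.132), but only 7.17% of its exon reads were unique, and over all exon reads it was -0.24 with an adjusted p of 0.0424. Ldha, lactate dehydrogenase, had -0.13 (adjusted p = 0.239), and Pdk1, which inhibits pyruvate dehydrogenase, had 0.13 (adjusted p = 0.237). The glucose transporter gene Slc2a1 had -0.10 (SE 0.16, adjusted p = 0.833). Car9, a carbonic anhydrase often used as a hypoxia marker, had too few reads to test, with 4, 1 and 2 in LG1 to LG3 and 7, 3 and 4 in GC1 to GC3. Epo was at 0 in all libraries.

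**Figure D5:**
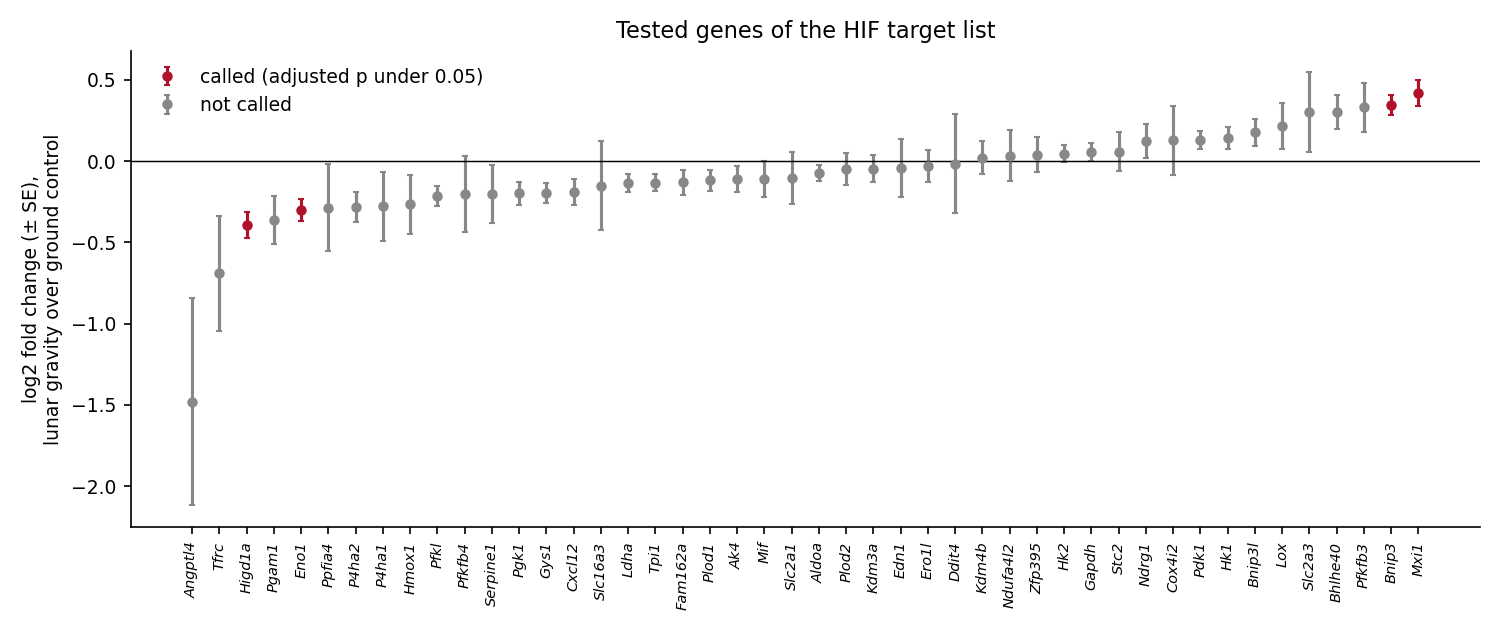
Log2 fold change (lunar gravity over ground control, ± SE) of the 46 tested genes of the HIF target list, in order of value, with the 4 called genes in red. Bnip3 and Mxi1 stand at the high end, Higd1a and Eno1 towards the low end, and 29 of 46 points lie below 0.

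In exon counts, no other VEGF or adrenomedullin ligand or receptor was called. Of 18 listed genes 15 were tested, with 0 called by edgeR and 0 by DESeq2, and 6 had an unadjusted p under 0.05, where 15.6% of all tested genes had one. Their median log2 fold change was 0.03, with 10 positive. The smallest p was that of Kdr, the main signalling receptor for VEGF-A, with 364, 309 and 372 CPM in LG1 to LG3, against 421, 412 and 376 CPM in GC1 to GC3. The groups did not overlap, though LG3 and GC3 nearly met. The log2 fold change was -0.21 (SE 0.07, adjusted p = 0.0912; 0.0483 without LG3).

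Flt1, a decoy receptor for VEGF-A in endothelium, had a log2 change of 0.14 (SE 0.06, adjusted p = 0.280), with 276, 245 and 237 CPM in LG1 to LG3 and 240, 231 and 219 CPM in GC1 to GC3. Calcrl, the adrenomedullin receptor, had 0.22 (SE 0.09, adjusted p = 0.191), and its partner Ramp2 had 0.02 (SE 0.11, adjusted p = 0.967). The groups overlapped in Flt1 and Calcrl. Calca, the gene of the related peptide CGRP, was at 0 in all libraries.

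In unique intron reads, 1 of 15 tested genes of that list was lower in lunar gravity, where 2.86% of all genes tested on introns were called. This gene, named after its values were seen, was Nrp1, which encodes neuropilin, a coreceptor for VEGF-A. Its introns had 587, 577 and 611 CPM in LG1 to LG3, against 689, 768 and 747 CPM in GC1 to GC3. All lunar gravity libraries were below all ground controls, with a log2 fold change of -0.31 (SE 0.07) and an adjusted p of 0.0310 in edgeR. The call was lost by library totals (-0.21, adjusted p = 0.208) and with GC3 regrouped (0.727). It was also lost without LG1 (0.0897), LG2 (0.179), LG3 (0.0729), GC2 (0.205) or GC3 (0.0654). In exon counts Nrp1 had -0.13 (adjusted p = 0.264).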

How the data were processed

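The authors deposited 1 table of 49585 genes for 6 libraries. Per the labels' protocols, RNA was extracted with ISOGEN II and about 500 ng was depleted of ribosomal RNA. Reads were placed on GRCm38 (mm10), as named in the submitters' processing notes. No aligner, counter or strand setting is given in the sources used here. The deposited columns are, per the file headers, read counts of each gene, its exons and its introns, with RPKM that the authors computed on exon reads. The deposited header places GC3 with lunar gravity, whereas its title calls it ground control; the title was followed, and the deposited comparison was not used.

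Counts were filtered (filterByExpr, minimum count 10), scaled by TMM and fitted in edgeR 4.0.16 (robust quasi-likelihood test, R 4.3.3) over all 6 libraries, lunar gravity over ground control, with Benjamini-Hochberg adjustment over all tested genes and calls under 0.05. The biological coefficient of variation was 6.2%. Unique intron reads were tested in the same way. Each standard error is the log2 fold change divided by the square root of F, and robust fitting can pair a small standard error with a larger p. The procedure was tested on simulated data. It recovered 42% of 1.3-fold changes and 85.7% of 2-fold changes, and 7.74% of its calls were false, above the 5% aimed at. Small changes were therefore often missed. Replicates differed by more than counting noise (chi-square per gene 2.09 to 5.39), so none was counted as a copy. Alternatives were other scalings, filters and read columns, DESeq2 1.42.0, limma voom (limma 3.58.1), a non-robust fit, a replicate block, each library left out, and GC3 regrouped.

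The members and lists were chosen with earlier results of these data known. All 10 members were named, with up to 6 called genes of each pathway list (otherwise the gene of smallest p), a panel of 13 genes, and the 3 nearest patterns to a called member, of which 1 is not reported here. Upstream sequences are from RefSeq. Total counts were 6461213 to 8271553 per library; precision depends on a gene's reads and on the spread between libraries.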

Additional observations from a re-analysis of the deposited data

How the results depend on the processing

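The deposited counts were refitted under 19 alternatives (18 for introns). Genes called numbered 462 as reported, 765 with no filter, 307 with DESeq2, 286 with DESeq2 without independent filtering, 32 with GC3 grouped with lunar gravity, and 219 to 463 with each library left out (219 without GC2, 232 without LG2). Of the 10 oxygen-sensing genes, 1 was called as reported, 3 with no filter, 0 with DESeq2 with or without independent filtering, 0 on total exon reads, 2 with GC3 regrouped, and 0 to 3 with a library left out (3 without GC3). Regulators called numbered 0 to 1 with a library left out, and VEGF and adrenomedullin genes 0 to 1, with 1 under no filter. HIF targets called numbered 4 as reported, 9 with no filter, 2 with GC3 regrouped, and 3 to 7 with a library left out (7 without LG3 or without GC3). Intron calls numbered 342 as reported, 672 with no filter, 17 with GC3 regrouped, and 148 to 545 with a library left out; the cause of these shifts was not tested.

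With a replicate block, 545 genes were called, 1 of the 10 genes and 7 HIF targets. Same-numbered libraries correlated at 0.04, -0.07 and 0.03 in their deviations over 8421 genes. Those of different numbers correlated at -0.09 to 0.07. No pairing by number was thus seen over these genes, but 3 libraries per group cannot exclude one.

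Signs turned in genes that were not called. With GC3 regrouped, Vhl had -0.15 and Slc2a1 0.10. Adm had 0.018 by library totals and 0.0066 on total exon reads. Egln3 introns had 0.14 with limma voom. With a library left out, log2 fold changes ran from -0.19 to 0.43 for Hif3a, -0.10 to 0.077 for Vhl, -0.14 to 0.089 for Adm, -0.24 to 0.020 for Slc2a1 and -0.041 to 0.092 for Ramp2. In introns they ran from -0.24 to 0.64 for Hif3a, -0.41 to 0.71 for Egln3 and -0.023 to 1.24 for Vhl. Bnip3, Mxi1, Higd1a and Eno1 lost their calls with GC3 regrouped. Scaling by library totals put the median of all genes at 0.045 in exon counts and 0.11 in introns. Depth limits Hif3a, Adm and Ankrd37 most.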
